A study of Homo sapiens with 16 samples.

Results

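Serpins are a protein family named for serine protease inhibitors. An inhibitory serpin offers a flexible loop as bait, the protease cuts it, and both partners are then trapped in a covalent complex and lost, so that each inhibitor molecule works only a single time. Secreted members control clotting, fibrinolysis and complement, those of clade B act mainly inside cells, and some members have no inhibitory activity and serve as chaperones or hormone carriers.

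The members described are protein-coding genes of the Gencode annotation whose symbol starts with SERPIN, 34 of the 57820 gene IDs of the count tables. A member was taken as detected when its counts in the 8 libraries of 1 serum condition added up to 10 or more, so that 20 were detected under low and 19 under standard serum, with SERPINA5 (protein C inhibitor) making the difference at 14 and 8 counts.

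RNA-Seq was performed on MDA-MB-231 and MDA-MB-436, established mesenchymal triple-negative breast cancer cell lines. All cells carried the stably transfected, puromycin-selected 7TGP vector, in which repeated Tcf binding sites drive eGFP as a readout of Wnt activity. Repeated sorting by eGFP had given a 7TGP-POS and a 7TGP-NEG subline of each line, so each group is a single sorted, drug-selected population. Reporter activity therefore cannot be told apart from other differences between the sublines of a pair. The same sublines were used in low and standard serum, so comparisons in both are not independent of each other. Each of the 8 groups (2 lines, 2 sublines, and harvest either on day 3 in 0.5% FBS, called low serum, or on day 6 in 10% FBS, called standard serum) had 2 biological replicates. The 16 libraries held 27918418 to 32667756 counts in low serum and 31827130 to 46044073 in standard serum. By the study's methods, the serum conditions also differed in RNA selection, library kit and sequencer, although the labels name the same kit for all. These factors cannot be told apart from serum, so no serpin was tested between serum conditions. The methods also give each line its own medium, although the labels name DMEM for both, and any such difference cannot be told apart from the line.

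The marker genes showed little epithelial cadherin and much vimentin: CDH1 had at most 12 counts in a low serum library and at most 10 in a standard serum library, while VIM lay between 369 and 3882 TPM (transcript share scaled by gene length, with a fixed total per library) over the 16 libraries. KRT8 and KRT18 were nonetheless at 73.9 TPM or more everywhere. In MDA-MB-231, KRT19 was at 484 to 1115 TPM and CLDN4 at 26.65 to 39.41 TPM, while CDH2 and TWIST1 were nearly absent. In 7TGP-POS cells of MDA-MB-231, VIM was lower in low and standard serum (log2 difference -1.05 ± 0.05 and -1.03 ± 0.08) and FN1 in standard serum (-2.14 ± 0.10). In 7TGP-POS cells of MDA-MB-436 both were higher, VIM by 0.16 ± 0.05 and 0.49 ± 0.08 and FN1 by 1.37 ± 0.05 and 0.66 ± 0.09 (low and standard serum). Other mesenchymal markers went either way. SNAI2 was higher in 7TGP-POS cells of MDA-MB-231 (0.67 ± 0.09 and 0.70 ± 0.12) and lower in those of MDA-MB-436 (-0.68 ± 0.18 and -0.76 ± 0.19). In low serum, ZEB2 was higher in both (0.27 ± 0.07 in MDA-MB-231 and 0.46 ± 0.06 in MDA-MB-436). There, ZEB1 was lower (-0.21 ± 0.06) and AXL higher (0.50 ± 0.05) in MDA-MB-436, and neither passed the test in MDA-MB-231. Of 3 leukocyte markers, the T cell gene CD3E had at most 2 counts in any library and CD14 was at 3.48 to 14.8 TPM. The third, PTPRC, was at 4.04 TPM or less and higher in MDA-MB-231 7TGP-POS than in 7TGP-NEG in low serum (log2 difference 1.14 ± 0.19, adjusted p = 3.61e-06, edgeR), as was SERPING1, and its part in that result was not tested. CD14 passed the test there as well (0.39 ± 0.13, adjusted p = 0.020), and in MDA-MB-436 it was higher in 7TGP-POS in low serum (0.98 ± 0.12, adjusted p = 1.15e-08) and lower in standard serum (-0.68 ± 0.17, adjusted p = 0.0034). The endothelial gene CDH5 had at most 5 counts in any library and VWF had 6 to 63. VWF was higher in 7TGP-POS cells of MDA-MB-231 under standard serum (0.98 ± 0.30, adjusted p = 0.019), where SERPING1 was higher too, and its part in that result was not tested. Among Wnt feedback genes, AXIN2 was higher in MDA-MB-231 7TGP-POS than in 7TGP-NEG in low serum (log2 fold change 0.65 ± 0.11 SE, adjusted p = 8.29e-06), and its change in the other comparisons did not pass the test (adjusted p from 0.11 to 0.68, edgeR's quasi-likelihood test). LEF1, a Tcf family factor, was higher in 7TGP-POS cells of MDA-MB-231 under low serum (0.63 ± 0.10), and of MDA-MB-436 under low (0.50 ± 0.09) and standard serum (0.90 ± 0.10). Its change in MDA-MB-231 under standard serum did not pass the test (0.02 ± 0.10, adjusted p = 0.91, edgeR). NKD1, a Wnt feedback inhibitor, was lower in 7TGP-POS cells of MDA-MB-436 under low serum (-1.21 ± 0.22, adjusted p = 1.00e-05). The eGFP transcript was not analysed here.

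A few serpins held most of the summed TPM of these 34 genes, TPM being the only deposited unit that allows genes to be compared. SERPINH1, the collagen chaperone of the endoplasmic reticulum, held 31.6 to 54.0% of it in low serum and 25.5 to 55.8% in standard serum. By the mean TPM of the 8 libraries it ranked 816th of the 16069 tested genes in low serum and 678th of 15414 in standard serum. SERPINB6 held 14.2 to 25.6% under low and 13.9 to 24.0% under standard serum, and SERPINB1 11.9 to 21.3% and 8.69 to 29.7%. Both are intracellular inhibitors of neutrophil-type proteases, and both had a larger share in every MDA-MB-231 library than in any MDA-MB-436 library. In standard serum SERPINB1 was above SERPINH1 in both MDA-MB-231 7TGP-NEG libraries. With SERPINE2 (protease nexin-1, a thrombin and urokinase inhibitor), at 2.97 to 19.1% and 7.68 to 19.9%, 4 genes held 81.1 to 92.7% of the summed TPM under low and 85.9 to 93.8% under standard serum.

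**Figure D1:**
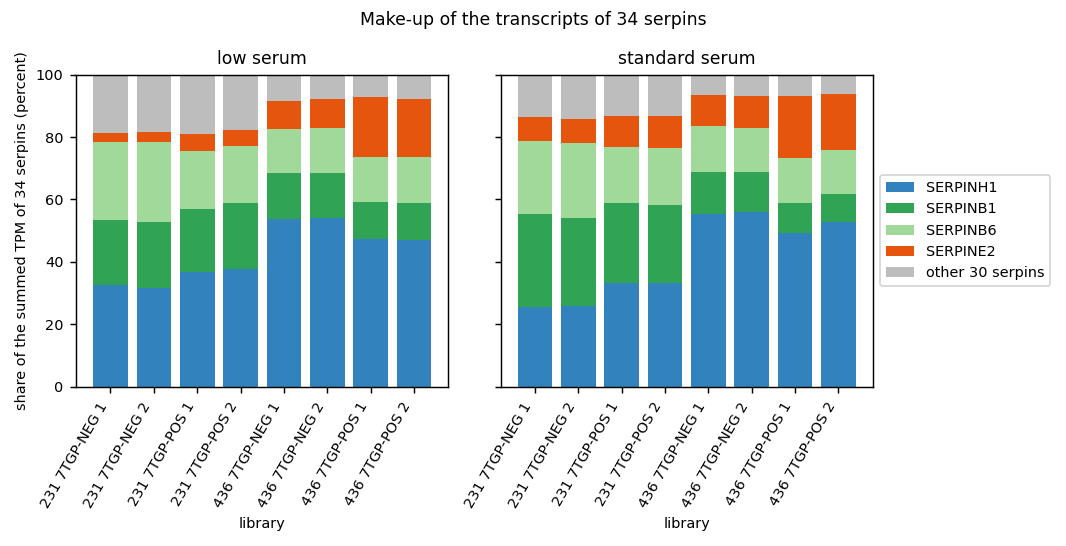
Share of the summed TPM of the 34 serpins (percent, y axis) held by each of 4 serpins and by the others together, in each library (x axis, 1 bar per library; 231 and 436 are the cell lines). The SERPINH1 block is wider in every MDA-MB-436 bar, and the SERPINB1 and SERPINB6 blocks are wider in every MDA-MB-231 bar.

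The order of mean TPM below these 4 was SERPINB9, SERPINB8, SERPINI1, SERPINA1 and SERPIND1 in low serum, at 9.08, 7.89, 7.76, 3.19 and 2.90 TPM. In standard serum it was SERPINB8, SERPINB9, SERPINI1, SERPIND1 and SERPINA1, at 17.9, 15.7, 8.36, 5.37 and 3.31 TPM. All remaining detected serpins averaged 2.14 TPM or less. These levels differ several-fold between the lines, so neighbours in the order are not separated, and low serum TPM is pressed down by an unnamed gene that took 4.54 to 20.6% of the TPM there.

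Not detected in either serum condition were SERPINA2, SERPINA4 (kallistatin), SERPINA6 (the cortisol carrier), SERPINA7 (the thyroxine carrier), SERPINA9, SERPINA10, SERPINA11, SERPINA12 (vaspin), SERPINB10, SERPINB11, SERPINB12, SERPINB13, SERPINE3 and SERPINI2. Each had 9 counts or fewer over 8 libraries. These members lay below what this depth can compare, which does not show that they are absent.

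**Figure D2:**
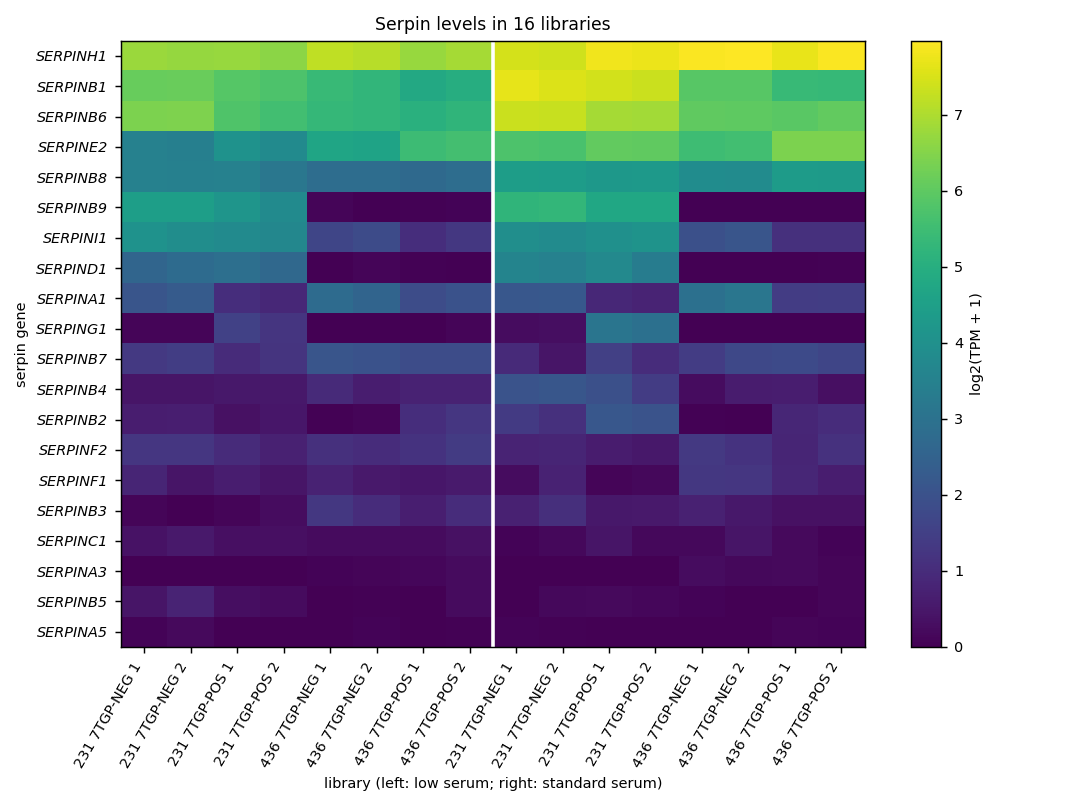
Level of the 20 detected serpins (rows, ordered by mean TPM in standard serum) in each of the 16 libraries (columns) as log2(TPM + 1), with low serum to the left of the white line. SERPINB9 and SERPIND1 are visible in all 8 MDA-MB-231 libraries and at 0 or nearly 0 in all 8 of MDA-MB-436.

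Each 7TGP-POS group was compared with its 7TGP-NEG group by edgeR's quasi-likelihood test over all tested protein-coding genes, to ask which genes differ between the sorted sublines. A gene was called where its Benjamini-Hochberg adjusted p was below 0.05 and its difference reached 2-fold, or 1 on the log2 scale. In MDA-MB-231, 2 of 20 serpins were called in low serum (SERPING1 higher, SERPINA1 lower), where 5.90% of all 16069 tested genes were called (3.50% higher, 2.40% lower). In standard serum 4 of 19 were called (SERPING1 and SERPINB2 higher, SERPINA1 and SERPINF1 lower), beside 7.69% of 15414 genes (4.96% higher, 2.72% lower). In MDA-MB-436, 2 of 20 were called in low serum (SERPINB2 and SERPINE2, both higher), beside 10.5% of all genes (6.52% higher, 4.03% lower). In standard serum 4 of 19 were called (SERPINB2 higher, SERPINA1, SERPINF1 and SERPINI1 lower), beside 12.5% of all genes (6.47% higher, 6.06% lower). Limma on log2(TPM + 1) called 1 lower and none higher there, beside 2.59% and 3.52% of all genes. With a pseudocount of 0.1 it called 1 higher and 2 lower, beside 6.86% and 4.92%, and in MDA-MB-231 in low serum also 1 higher and 2 lower, beside 2.34% and 3.14%. By the adjusted p alone, 5 and 9 serpins passed in MDA-MB-231 (low and standard serum), beside 38.9% and 33.0% of all genes, and 6 and 8 in MDA-MB-436, beside 52.0% and 49.5%. The change differed between the lines, by the interaction term of the same model, for 3 of 20 serpins in low serum (all lower in MDA-MB-231 relative to MDA-MB-436), beside 11.7% of all genes (4.72% higher, 7.01% lower). In standard serum it differed for 2 of 19 (1 higher, 1 lower), beside 13.8% (7.02% higher, 6.81% lower). On log2(TPM + 1), limma called 1 each way in low serum for this difference, beside 3.46% of all genes higher and 3.49% lower, and 2 higher in standard serum, beside 5.36% higher and 5.23% lower. With a pseudocount of 0.1 it called 2 higher and 3 lower (6.51% and 7.19%), and 2 higher and 1 lower (8.64% and 8.57%). By the adjusted p alone, these were 7 and 7 serpins, beside 45.7% and 41.2% of all genes.

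The median log2 fold change of the detected serpins was -0.20 in MDA-MB-231 and 0.14 in MDA-MB-436 in low serum, against -0.01 and 0.01 for all tested genes, and -0.03 and -0.12 in standard serum, against 0.00 and 0.005. These medians cover only members that passed the count minimum and are a description.

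**Figure D3:**
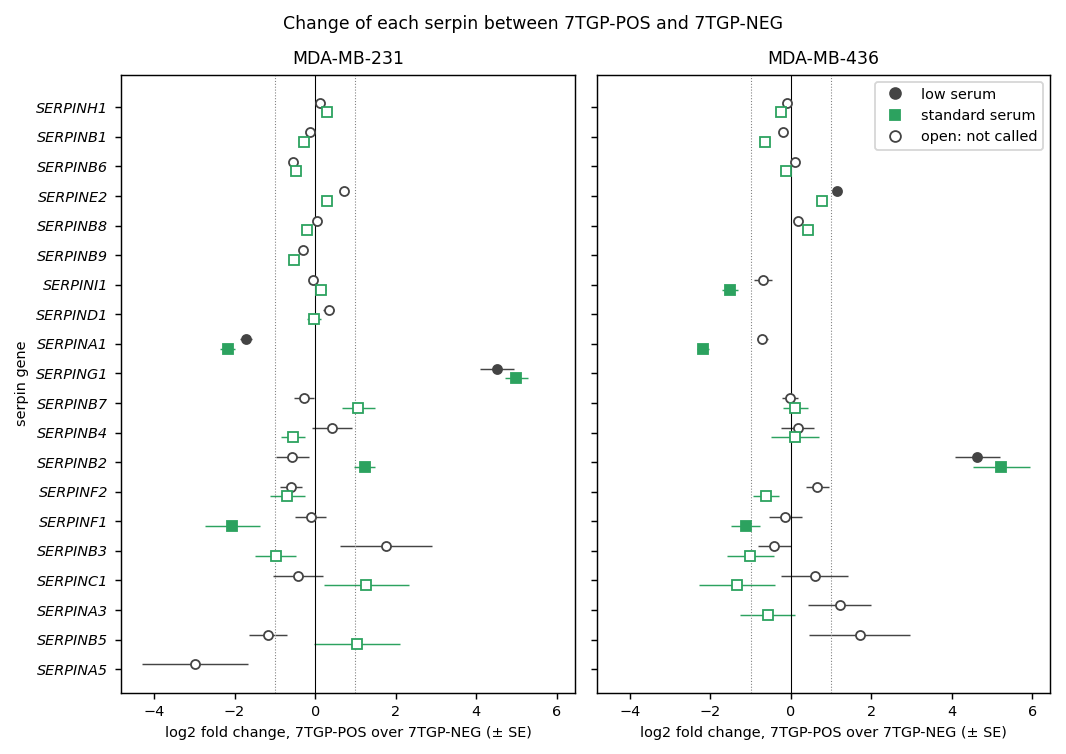
Log2 fold change of each detected serpin between 7TGP-POS and 7TGP-NEG (x axis, with SE bars) in MDA-MB-231 (left) and MDA-MB-436 (right), circles for low and squares for standard serum, filled where called; members with 3 counts or fewer in every library of both groups are left out. SERPING1 stands far right in MDA-MB-231 and SERPINB2 in MDA-MB-436, and SERPINA1 lies left of 0 in all 4 comparisons.

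SERPING1 encodes C1 inhibitor, the plasma serpin that blocks the complement proteases C1r and C1s, plasma kallikrein and factor XIIa. The gene lies on chromosome 11 at 57364860 to 57386644 on the plus strand (GRCh37). In MDA-MB-231 in low serum it had 4 and 3 counts in 7TGP-NEG and 91 and 67 in 7TGP-POS, and in standard serum 7 and 7 against 245 and 236. Both 7TGP-POS replicates were far above both 7TGP-NEG replicates in each serum condition. On the CPM scale (counts relative to all counts of a library) the standard serum means were 0.207 ± 0.0190 and 6.92 ± 0.482 (SD, n = 2), a 31.9-fold difference (log2 fold change 5.00 ± 0.28 SE, adjusted p = 1.17e-09). In low serum they were 0.115 ± 0.0214 and 2.70 ± 0.480, a 22.8-fold difference (4.51 ± 0.41, adjusted p = 8.51e-12). In MDA-MB-436 the gene was at 0 in 7 of 8 libraries and at 3 counts in the other, so no fold was taken there. In bulk RNA, more cells with the transcript and more transcript per cell cannot be told apart. The 6 nearest tested protein-coding genes, 3 on each side, had log2 fold changes of 0.23 to 0.81 in low serum and 0.19 to 0.65 in standard serum. All were positive and none was called, but several passed by the adjusted p alone, as 38.9% and 33.0% of all genes did. Whether the region changed as a whole was not tested. Around the other called serpins, 1 of 6 such genes was called for SERPINA1 in MDA-MB-231 in low serum and in MDA-MB-436 in standard serum. In standard serum 1 was also called for SERPINB2 in MDA-MB-231 and for SERPINF1 in MDA-MB-436, and elsewhere none.

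The proteases that C1 inhibitor blocks were given as a fixed list of 7 genes, of which the test covered 7 under low and 5 under standard serum. C1S was higher in 7TGP-POS cells of MDA-MB-231 in both, at 16.9 against 7.74 CPM in low serum (log2 fold change 1.13 ± 0.08) and 5.45 against 2.16 CPM in standard serum (1.29 ± 0.13). In 7TGP-POS cells of MDA-MB-436 under standard serum, where SERPING1 had 0 counts, C1S and C1R were lower, at 275 against 836 and 357 against 954 CPM (adjusted p = 6.60e-12 and 2.12e-11). MASP1 was lower in 7TGP-POS cells of MDA-MB-231 under standard serum and F12 was lower in 7TGP-POS cells of MDA-MB-436 under low serum, and no other list member was called.

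SERPINA1 encodes alpha-1-antitrypsin, the main inhibitor of neutrophil elastase, and lies on chromosome 14 at 94843084 to 94857030 on the minus strand (GRCh37). In MDA-MB-231 its counts were 202 and 229 in 7TGP-NEG and 67 and 58 in 7TGP-POS in low serum, and 160 and 150 against 38 and 35 in standard serum. In MDA-MB-436 they were 301 and 236 against 166 and 156 in low serum, and 307 and 406 against 100 and 83 in standard serum. In all 4 comparisons both 7TGP-POS replicates were below both 7TGP-NEG replicates. The gene was 3.29-fold lower in MDA-MB-231 in low serum (log2 fold change -1.72 ± 0.16, adjusted p = 4.26e-12) and 4.50-fold lower in standard serum (-2.17 ± 0.19, adjusted p = 6.03e-08). In MDA-MB-436 it was 4.55-fold lower in standard serum (-2.19 ± 0.15, adjusted p = 1.84e-09). In low serum the decrease there was 1.63-fold, below the 2-fold threshold but past the test (-0.70 ± 0.13, adjusted p = 8.65e-06). The difference between the lines in low serum was -1.02 ± 0.21 on the log2 scale (adjusted p = 6.78e-05), and without MDA-MB-231 7TGP-NEG replicate 2 it was -0.86.

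The 7TGP reporter reads out Tcf binding, so the RefSeq promoter windows (250 bases before to 50 after a start, GRCh38.p14) of the serpins were searched for the Tcf letters ATCAAAG on both strands. The table held 41 windows for 27 of the 34 serpins, and 2 of the 41 had a match (4.88%), beside 919 of 35116 windows in all (2.62%). The matches were in SERPIND1 and in 1 of 2 windows of SERPINB12, which was not detected. The windows of the serpins called between 7TGP-POS and 7TGP-NEG are printed as the upstream sequence of the genes that moved, except for SERPING1 and SERPINF1, which had no entry, and that of SERPIND1 is printed because it holds the match. Capitals mark ATCAAAG or its reverse complement CTTTGAT and all other bases are in lower case.
SERPINA1 window, chr14:94388553-94388852, minus strand: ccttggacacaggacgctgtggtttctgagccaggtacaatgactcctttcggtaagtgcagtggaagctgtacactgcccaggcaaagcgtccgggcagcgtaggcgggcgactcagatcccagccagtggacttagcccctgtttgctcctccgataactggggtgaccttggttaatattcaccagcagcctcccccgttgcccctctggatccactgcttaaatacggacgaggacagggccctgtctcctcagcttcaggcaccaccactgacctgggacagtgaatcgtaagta
SERPINA1 second window, chr14:94390586-94390885, minus strand: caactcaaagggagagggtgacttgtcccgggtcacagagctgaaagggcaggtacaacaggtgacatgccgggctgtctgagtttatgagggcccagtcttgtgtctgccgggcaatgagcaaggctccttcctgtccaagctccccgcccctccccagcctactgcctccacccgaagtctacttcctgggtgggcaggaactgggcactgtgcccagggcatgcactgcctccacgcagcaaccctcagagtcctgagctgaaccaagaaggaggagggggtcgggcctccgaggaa
SERPINB2 window, chr18:63887455-63887754, plus strand: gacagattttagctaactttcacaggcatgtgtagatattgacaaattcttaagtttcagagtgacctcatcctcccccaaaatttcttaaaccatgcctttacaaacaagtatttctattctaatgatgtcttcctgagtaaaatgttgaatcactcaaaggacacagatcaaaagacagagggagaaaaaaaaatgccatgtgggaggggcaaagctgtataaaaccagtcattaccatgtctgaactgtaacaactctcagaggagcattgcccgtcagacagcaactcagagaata
SERPINE2 window, chr2:224031429-224031728, minus strand: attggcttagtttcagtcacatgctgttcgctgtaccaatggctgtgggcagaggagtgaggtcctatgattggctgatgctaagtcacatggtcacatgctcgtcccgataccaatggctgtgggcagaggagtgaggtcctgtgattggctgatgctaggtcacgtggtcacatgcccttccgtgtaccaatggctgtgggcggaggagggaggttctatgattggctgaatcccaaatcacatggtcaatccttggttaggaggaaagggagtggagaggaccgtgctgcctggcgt
SERPINE2 second window, chr2:224038591-224038890, minus strand: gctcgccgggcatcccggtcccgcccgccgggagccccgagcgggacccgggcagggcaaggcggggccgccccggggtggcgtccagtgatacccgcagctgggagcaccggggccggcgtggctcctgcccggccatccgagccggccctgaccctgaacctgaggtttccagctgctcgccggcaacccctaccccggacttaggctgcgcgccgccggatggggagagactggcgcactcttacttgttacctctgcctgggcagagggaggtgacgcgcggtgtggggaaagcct
SERPINI1 window, chr3:167735471-167735770, plus strand: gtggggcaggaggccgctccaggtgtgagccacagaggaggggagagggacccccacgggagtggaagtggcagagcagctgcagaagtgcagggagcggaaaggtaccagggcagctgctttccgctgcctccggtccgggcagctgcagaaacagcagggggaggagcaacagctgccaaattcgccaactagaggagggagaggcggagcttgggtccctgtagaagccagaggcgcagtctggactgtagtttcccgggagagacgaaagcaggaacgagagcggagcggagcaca
SERPIND1 window, chr22:20773863-20774162, plus strand: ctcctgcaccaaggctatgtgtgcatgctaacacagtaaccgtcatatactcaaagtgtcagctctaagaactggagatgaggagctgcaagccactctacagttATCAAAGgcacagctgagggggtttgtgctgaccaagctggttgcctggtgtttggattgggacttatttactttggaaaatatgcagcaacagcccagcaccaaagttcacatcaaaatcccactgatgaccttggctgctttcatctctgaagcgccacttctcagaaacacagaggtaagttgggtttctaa
The GC content of these windows was 57.3%, 61.7%, 39.0%, 54.0%, 73.7%, 64.0% and 47.0%, in the order shown. A match is a run of letters and not a binding site, and a window without them says nothing of more distant sites. SERPIND1, which holds the match, was not called between 7TGP-POS and 7TGP-NEG in either line.

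SERPINB2 encodes plasminogen activator inhibitor 2, which blocks urokinase and is mostly kept inside the cell (chromosome 18, 61538926 to 61571122, plus strand, GRCh37). In MDA-MB-436 it had 1 and 2 counts in 7TGP-NEG and 38 and 41 in 7TGP-POS in low serum, and 1 and 0 against 28 and 27 in standard serum. The groups did not overlap in either serum condition. Because 7TGP-NEG was within 3 counts per library, the ratio of summed counts was taken with an exact 95% counting interval, which covers counting error only. It was 27.1 (8.94 to 134) in low serum (adjusted p = 2.64e-09) and 48.6 (8.37 to 1955) in standard serum (adjusted p = 7.74e-06). In MDA-MB-231 the counts were 19 and 20 against 10 and 15 in low serum, a difference that did not pass the test (log2 fold change -0.57 ± 0.41, adjusted p = 0.30). In standard serum they were 41 and 27 against 85 and 84, which is 2.34-fold higher in 7TGP-POS (1.23 ± 0.26, adjusted p = 0.0010). On the log2(TPM + 1) scale of limma the standard serum changes were 0.87 in MDA-MB-231 and 0.91 in MDA-MB-436, both under the 2-fold threshold. The change in MDA-MB-231 minus that in MDA-MB-436 was -5.20 ± 0.74 in low serum (adjusted p = 1.51e-07) and -4.00 ± 0.87 in standard serum (adjusted p = 0.0012). The standard serum value rests on the lone count in 7TGP-NEG: it was -6.29 without MDA-MB-436 7TGP-NEG replicate 1, -3.05 without replicate 2, and -0.04 (adjusted p = 0.84) from limma on log2(TPM + 1). At these levels SERPINB2 was a minor transcript, at 0 to 3.44 TPM in standard serum against 169.7 TPM or more for SERPINH1.

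**Figure D4:**
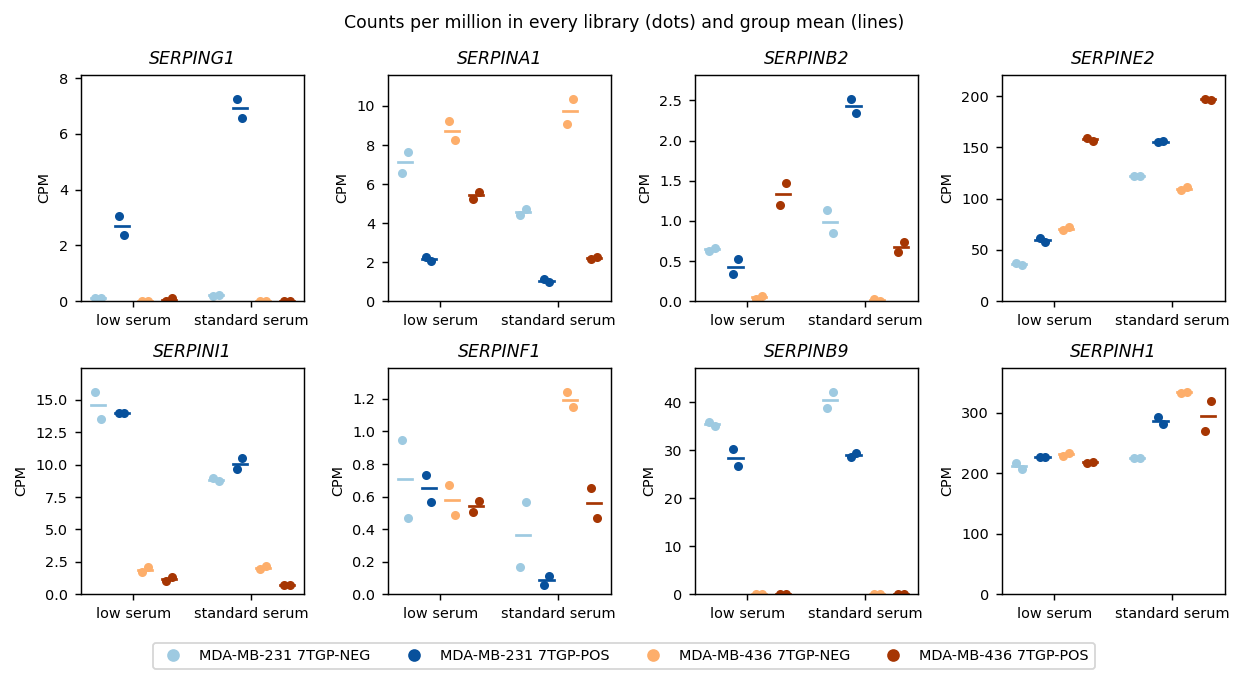
CPM (counts scaled to the library total, y axis, from 0, with its own range in each panel) of 8 serpins in every library (dots) with group means (lines), by serum condition on the x axis and with colours for the 4 sublines. SERPING1 is raised in MDA-MB-231 7TGP-POS, SERPINB2 is near 0 in MDA-MB-436 7TGP-NEG, and SERPINB9 is at or near 0 in every MDA-MB-436 library.

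SERPINE2 (chromosome 2, 224839762 to 224904035, minus strand, GRCh37) was the only detected serpin that passed the adjusted p alone upwards in all 4 comparisons. Under low serum, 19% of all tested genes passed upwards this way for MDA-MB-231, beside 26.6% for MDA-MB-436. Under standard serum these shares were 16.8% and 26.1%. How many genes passed upwards in all 4, as SERPINE2 did, was not counted. In MDA-MB-436 in low serum the CPM was 69.0 and 71.9 in 7TGP-NEG and 159 and 157 in 7TGP-POS, a 2.22-fold increase (log2 fold change 1.15 ± 0.05, adjusted p = 3.31e-21). In standard serum it was 109 and 111 against 197 and 197, a 1.72-fold increase (0.79 ± 0.07, adjusted p = 3.56e-08). In MDA-MB-231 it was 37.4 and 35.1 against 61.5 and 57.4 in low serum (0.72 ± 0.06, adjusted p = 3.45e-13) and 122 and 122 against 155 and 156 in standard serum (0.30 ± 0.07, adjusted p = 0.0023). The increase was larger in MDA-MB-436 than in MDA-MB-231 by 0.43 ± 0.08 under low and 0.49 ± 0.10 under standard serum (adjusted p = 2.26e-05 and 4.96e-04). On the log2(TPM + 1) scale of limma the low serum change in MDA-MB-436 was 0.88, under the 2-fold threshold.

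SERPINI1 encodes neuroserpin, an inhibitor of tissue plasminogen activator best known from neurons (chromosome 3, 167453031 to 167543357, plus strand, GRCh37). In MDA-MB-436 its counts were 55 and 60 in 7TGP-NEG and 33 and 37 in 7TGP-POS in low serum, and 65 and 84 against 34 and 27 in standard serum. The 7TGP-POS libraries were lower in both, by 1.61-fold in low serum (log2 fold change -0.68 ± 0.23, adjusted p = 0.011) and 2.86-fold in standard serum (-1.52 ± 0.20, adjusted p = 5.79e-06). On the log2(TPM + 1) scale of limma the standard serum change was -0.92, under the 2-fold threshold, and the low serum change missed the test in 2 of 16 alternatives. In MDA-MB-231 the counts were 479 and 405 against 418 and 397 in low serum and 326 and 277 against 326 and 376 in standard serum, and neither change passed the test (adjusted p = 0.75 and 0.47). The change differed between the lines by 1.65 ± 0.24 in standard serum (adjusted p = 2.17e-05).

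SERPINF1 encodes pigment epithelium-derived factor, a serpin without protease inhibition that restrains vessel growth (chromosome 17, 1665323 to 1680859, plus strand, GRCh37). In standard serum it had 6 and 18 counts in MDA-MB-231 7TGP-NEG and 2 and 4 in 7TGP-POS (log2 fold change -2.05 ± 0.69, adjusted p = 0.029), and 42 and 45 against 30 and 17 in MDA-MB-436 (-1.13 ± 0.36, adjusted p = 0.014). The groups did not overlap, but the counts are low and both calls were lost with DESeq2 (adjusted p = 0.061 and 0.16) and with limma on log2(TPM + 1) (log2 changes -0.37 and -0.53). Without MDA-MB-231 7TGP-NEG replicate 2 the first was -0.98 (adjusted p = 0.47), and it was also lost without either 7TGP-POS replicate or MDA-MB-436 7TGP-NEG replicate 1. The second was lost without either MDA-MB-436 7TGP-NEG replicate (adjusted p = 0.093 and 0.053) and without 7TGP-POS replicate 2 (adjusted p = 0.085). In low serum the counts were 29 and 14 against 22 and 16 in MDA-MB-231 and 22 and 14 against 16 and 16 in MDA-MB-436, and the groups overlapped (adjusted p = 0.85 and 0.81).

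The other abundant members moved by less than 2-fold. SERPINB6 was lower in 7TGP-POS cells of MDA-MB-231, at 91.6 ± 2.97 against 135 ± 1.15 CPM in low serum and 126 ± 1.48 against 169 ± 1.63 in standard serum (log2 fold changes -0.55 ± 0.05 and -0.48 ± 0.07). SERPINB9, the inhibitor of granzyme B by which cells can resist killing by cytotoxic lymphocytes, was lower there too, at 28.4 ± 2.58 against 35.4 ± 0.543 CPM and 29.0 ± 0.497 against 40.4 ± 2.44 (adjusted p = 0.0015 and 3.91e-04, or 0.088 in low serum with the highest of 16 alternatives). SERPINB1 was lower in 7TGP-POS in MDA-MB-436 in both serum conditions (-0.19 ± 0.06 and -0.64 ± 0.08) and in MDA-MB-231 in standard serum (-0.27 ± 0.07). SERPINH1 changed by 0.30 ± 0.08 in MDA-MB-231 in standard serum and by -0.24 ± 0.08 in MDA-MB-436, where it missed the test in 6 of 16 alternatives (adjusted p up to 0.16), with a difference between the lines of 0.53 ± 0.11 (adjusted p = 7.70e-04). SERPINB8, an intracellular furin inhibitor, was higher in 7TGP-POS cells of MDA-MB-436 under standard serum (0.44 ± 0.09, adjusted p = 5.47e-04). SERPINF2, alpha-2-antiplasmin, was higher in 7TGP-POS cells of MDA-MB-436 under low serum at the edge of the test (0.66 ± 0.28, adjusted p = 0.0496), with 28 and 23 counts against 39 and 40. That change missed the test in 14 of 16 alternatives, with adjusted p up to 0.24.

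Of the scarcer members, none passed the test between 7TGP-POS and 7TGP-NEG. SERPINB5 (maspin) came closest, with 18 and 34 counts against 12 and 10 in MDA-MB-231 in low serum (log2 fold change -1.17 ± 0.48, adjusted p = 0.052), and had at most 5 counts in any standard serum library. SERPINB3 and SERPINB4, near-identical neighbours whose counts may miss reads that fit both, stayed between 0 and 59 counts per library. SERPINB7 ranged from 8 to 89 counts, SERPINC1 (antithrombin) from 1 to 10, SERPINA3 (alpha-1-antichymotrypsin) from 0 to 8, and SERPINA5 from 0 to 7.

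The 7TGP-NEG sublines of the lines were compared next, and these libraries also serve as controls in the comparisons of 7TGP-POS with 7TGP-NEG. Of the serpins, 11 of 20 were called in low serum (10 higher in MDA-MB-231, 1 lower) and 11 of 19 in standard serum (8 higher, 3 lower), beside 41.9% and 46.7% of all genes. The split depends on scaling: limma on log2(TPM + 1) called 4 higher and 2 lower in low serum, beside 9.85% and 22.4% of all genes, and 7 higher and none lower in standard serum, beside 14.0% and 21.0%. By direction in edgeR, 20.5% of all genes were called higher in MDA-MB-231 and 21.4% lower in low serum, while standard serum gave 21.3% and 25.4%.

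SERPINB9 and SERPIND1 (heparin cofactor II, a thrombin inhibitor) had at most 3 counts in any MDA-MB-436 library. SERPINB9 had 1097 and 1049 counts in MDA-MB-231 7TGP-NEG under low and 1402 and 1341 under standard serum, against 3 and 0, and 0 and 0, in MDA-MB-436 7TGP-NEG. The ratio was 723 (247 to 3511, exact counting interval) in low serum and at least 488 in standard serum, where MDA-MB-436 was set to the floor of 3 counts per library. SERPIND1 had 161 and 183, and 268 and 227 counts in MDA-MB-231 7TGP-NEG, against 0 and 2, and 0 and 0. Its ratio was 174 (47.8 to 1442) in low serum and at least 87.8 in standard serum. The gene overlaps PI4KA on the other strand.

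Among members expressed in both lines, SERPINI1 was 8.33-fold higher in MDA-MB-231 7TGP-NEG in low serum (14.6 ± 1.49 against 1.89 ± 0.291 CPM) and 5.00-fold higher in standard serum (8.85 ± 0.206 against 2.03 ± 0.156). SERPINB6 was 2.91-fold and 2.80-fold higher, and SERPINB1 2.37-fold and 3.73-fold, although on the log2(TPM + 1) scale the low serum difference of SERPINB1 was 0.83. SERPINB2 was higher in MDA-MB-231 as well, with ratios of 13.1 (4.18 to 66.5) and 72.9 (12.6 to 2919). Lower in MDA-MB-231 in standard serum were SERPINF1 (2.90-fold, adjusted p = 0.0022), SERPINB7 (2.70-fold, adjusted p = 0.0034) and SERPINA3, which had 0 and 0 counts against 8 and 6 (at least 2.20-fold). The SERPINF1 call was lost without MDA-MB-231 7TGP-NEG replicate 1 (adjusted p = 0.067) and the SERPINB7 call without replicate 2 (log2 difference -0.94). The remaining calls were, mostly on few counts, SERPINB5, SERPINC1, SERPING1 and SERPINB8 (2.18-fold) higher and SERPINB3 lower in low serum, and SERPINB4 and SERPING1 higher in standard serum, of which SERPINB8 had at least 269 counts in every library compared. With MDA-MB-436 set to the floor, SERPING1 was at least 1.17-fold higher in low serum, which is under the 2-fold threshold. In standard serum it was at least 2.50-fold higher.

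**Figure D5:**
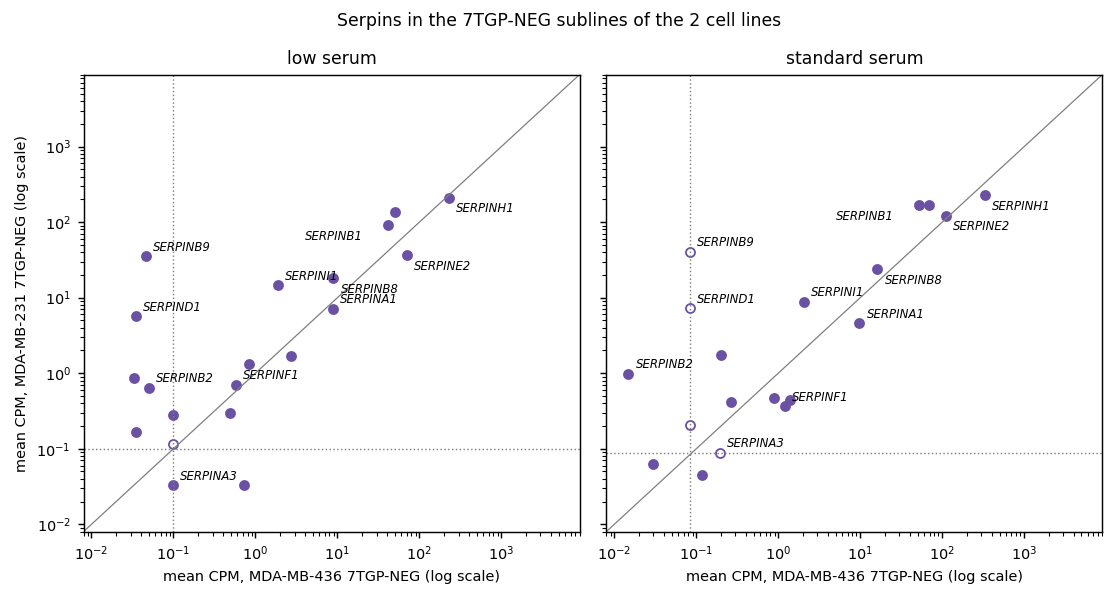
Mean CPM of each detected serpin in MDA-MB-436 7TGP-NEG (x axis) and MDA-MB-231 7TGP-NEG (y axis), both on log scales, with a grey line of equal level and dotted lines at 3 counts per library; open circles are groups with 0 counts drawn at that floor. SERPINB9 and SERPIND1 sit far above the line at the left edge, and SERPINH1 lies close to it in low serum.

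Genes of proteases, their cofactors and receptors, other inhibitors and collagen folding were counted in fixed lists. These counts are to be read beside the shares of all genes called in the same comparisons. Those shares were 5.90% and 7.69% in MDA-MB-231 (low and standard serum) and 10.5% and 12.5% in MDA-MB-436. Of 18 tested genes of plasminogen activation and coagulation (17 in standard serum), 1 was called in MDA-MB-231 in low serum and none in standard serum, and in MDA-MB-436 3 were called higher in low serum and 4 higher and 2 lower in standard serum. F3, tissue factor, which starts clotting, was higher in 7TGP-POS in low serum in both lines, at 260 against 112 CPM in MDA-MB-231 (log2 fold change 1.22 ± 0.05) and 10.0 against 4.34 in MDA-MB-436 (1.20 ± 0.10). In MDA-MB-436 7TGP-POS, F2R, the thrombin receptor, was higher by 2.05 ± 0.09 under low and 2.03 ± 0.09 under standard serum, and TFPI, the inhibitor of tissue factor, rose from 0.280 to 2.20 CPM in low serum. PLAUR, the urokinase receptor, was lower there in standard serum, at 22.8 against 68.7 CPM (-1.65 ± 0.09, adjusted p = 8.36e-11).

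Of 12 tested cathepsins, granzymes, neutrophil proteases and kallikreins (11 in standard serum), 1 was called higher and 2 lower in MDA-MB-231 in low serum and 2 each way in standard serum, and in MDA-MB-436 1 and 4 were called, all lower. CTSS, cathepsin S, was higher in 7TGP-POS cells of MDA-MB-231 under low serum (44.6 against 8.71 CPM) and in standard serum (28.8 against 4.34), and lower in 7TGP-POS cells of MDA-MB-436 under standard serum (21.0 against 44.1). CTSB, cathepsin B, was also lower there (458 against 960 CPM), and CTSL, cathepsin L, was lower in 7TGP-POS cells of MDA-MB-231 under standard serum (58.2 against 132).

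Membrane and secreted serine proteases were called higher in 4 and lower in 2 of 20 in MDA-MB-231 in low serum, 2 and 2 in MDA-MB-436, and in standard serum 1 and 2 of 18, and 1 and 1. HTRA1 was higher in 7TGP-POS cells of MDA-MB-436 under both serum conditions (2.15 ± 0.07 and 1.20 ± 0.10), where FAP, a fibroblast-type surface protease, was lower (-1.11 ± 0.11 and -1.70 ± 0.16). Other serine protease inhibitors were called lower in 2 of 21 in MDA-MB-231 in low serum, and 6 higher and 1 lower in MDA-MB-436. In standard serum the calls were 3 higher and 2 lower of 19 in MDA-MB-231, and 2 higher and 3 lower in MDA-MB-436. A2M, alpha-2-macroglobulin, which cages proteases of all classes, was lower in 7TGP-POS cells of MDA-MB-231 under low serum (0.665 against 2.49 CPM), and in MDA-MB-436 in low serum it was at 2.09 CPM in 7TGP-POS and at no more than 3 counts per library in 7TGP-NEG. AGT, angiotensinogen, a serpin by fold though not by symbol, was lower in 7TGP-POS cells of MDA-MB-436 under standard serum (1.38 against 4.59 CPM, adjusted p = 1.35e-06).

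Collagen folding and modification is the process that SERPINH1 serves as a chaperone. Of its 15 tested genes, 2 were called (both higher) in MDA-MB-231 in low serum and 1 (higher) in standard serum. In MDA-MB-436, 1 was called (lower) in low serum and none in standard serum. P4HA3, a subunit of prolyl hydroxylase, was among them in each comparison with a call. It was at 1.20 against 0.231 CPM in MDA-MB-231 in low serum and 0.241 against 0.601 in MDA-MB-436. The list medians lay between -0.24 and 0.19 on the log2 scale in the 4 comparisons, beside -0.01 to 0.01 for all genes.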

How the data were processed

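RNA-Seq count and TPM tables of 16 libraries were used. Per the study's methods, the authors screened reads against ribosomal RNA with Bowtie and aligned them to hg19 (GRCh37) with STAR (version 2.6.1a in the submitters' processing notes), and the deposited values are whole read pair counts per Gencode v19 gene, without normalization or filtering. The authors also deposited TPM values, whose calculation is not given in the sources used here. The processing notes also name edgeR 3.22.5 and limma. All columns matched a labelled sample.

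Gene IDs were matched to Gencode v44 lifted to GRCh37 (55538 of 57820 IDs, 19404 protein-coding), and tests took in the protein-coding genes whose counts over 8 libraries reached 10. Each serum condition was fitted alone, with 4 groups of 2, TMM factors and edgeR's robust quasi-likelihood test, adjusted by Benjamini-Hochberg over all tested genes. Standard errors were taken as the size of the log2 change over the root of its F statistic. The interaction is the difference of the changes of the lines in the same model. The floor was 3 counts per library, exact 95% intervals came from the binomial distribution, and intervals and floors cover counting error only. No pairing was used: deviations of same-numbered replicates correlated by -0.057 to 0.117.

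Serpins called between 7TGP-POS and 7TGP-NEG were given in every library, and the other abundant serpins were added after their values were seen. A further gene found by the symbol rule is not reported here. From each companion list up to 5 called genes per comparison, by adjusted p, could be named, and those printed are a subset chosen after their values were seen. The members, lists and tests were chosen with earlier results of these data known. Alternatives were DESeq2, its size factors, other filters, the adjusted p alone, a replicate block, limma on log2(TPM + 1) and log2(TPM + 0.1), the pair alone, and leaving out each library. Tested on simulated data for MDA-MB-231, with 200 genes changed 4-fold, the fit called 100% of them and 0 others, of 15922 genes in low serum and 15304 in standard serum. The changed genes were drawn only from well-counted genes, with a single low spread and no difference between the lines. The simulation therefore does not cover serpins with few counts or changes near 2-fold. Promoter windows are from RefSeq. Versions were R 4.3.3, edgeR 4.0.16, limma 3.58.1, DESeq2 1.42.0, matplotlib 3.10.9, scipy 1.17.1, pandas 2.3.3, numpy 2.4.6 and Python 3.11.15.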

Additional observations from a re-analysis of the deposited data

Results flagged for a closer look

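For 5 results the change between 7TGP-POS and 7TGP-NEG differed between the lines by the interaction test of edgeR, at an adjusted p under 0.05 and a difference of at least 1 on the log2 scale, each given as the change in MDA-MB-231 minus that in MDA-MB-436. In low serum, 11.7% of all tested genes met this, and in standard serum 13.8%. The low serum results were 3 of 20 serpins. SERPINB2 differed by -5.20 ± 0.74 (adjusted p = 1.51e-07), SERPINF2 by -1.26 ± 0.40 (adjusted p = 0.0089) and SERPINA1 by -1.02 ± 0.21 (adjusted p = 6.78e-05). SERPINF2 counts were 41 and 40 in MDA-MB-231 7TGP-NEG against 30 and 21 in 7TGP-POS, and 28 and 23 against 39 and 40 in MDA-MB-436, where the first change did not pass the test on its own (adjusted p = 0.092) and the second did (adjusted p = 0.0496) but missed it in 14 of 16 alternatives. SERPINA1 was lower in 7TGP-POS in both lines.

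The standard serum results were 2 of 19 serpins. SERPINB2 differed by -4.00 ± 0.87 (adjusted p = 0.0012) and SERPINI1 by 1.65 ± 0.24 (adjusted p = 2.17e-05). SERPINI1 fell in MDA-MB-436, and its change in MDA-MB-231 did not pass the test (adjusted p = 0.47).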

How the results depend on the processing

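Over 55 values of single serpins, none changed sign in 851 repeats under other settings, 799 stayed on the same side of the call rule (adjusted p and 2-fold) and 52 were no longer called. Of 16 changes under 2-fold that passed the test, 6 missed it in some setting, in 27 of 256 repeats: SERPINF2 in MDA-MB-436 in low serum in 14, SERPINH1 in MDA-MB-436 in standard serum in 6, SERPINB1 and SERPINH1 in MDA-MB-231 in standard serum and SERPINI1 in MDA-MB-436 in low serum in 2 each, and SERPINB9 in MDA-MB-231 in low serum in 1. With the adjusted p alone, the number of serpins called between 7TGP-POS and 7TGP-NEG rose to 5 and 9 in MDA-MB-231 (low and standard serum) and to 6 and 8 in MDA-MB-436, and for the difference between the lines to 7 and 7, where 38.9%, 33.0%, 52.0%, 49.5%, 45.7% and 41.2% of all genes passed. Limma on log2(TPM + 1) called 1 in MDA-MB-436 in low serum, beside 793 of all 16069 tested genes. In standard serum it called 2 in MDA-MB-231 and 1 in MDA-MB-436, beside 522 and 941 of 15414 genes. Between the 7TGP-NEG sublines it called 6 and 7 (low and standard serum), beside 5183 and 5399 genes. With a pseudocount of 0.1 it called 1 in MDA-MB-436 in low serum, beside 1647 genes. For the difference between the lines in low serum it called 5, beside 2202 genes. DESeq2 called 1 for that difference, beside 1677 genes. TPM scaling moved the median of all genes by -0.12 to -0.34 on the log2 scale in low serum comparisons within and between lines, and by -0.14 between the lines in standard serum with a pseudocount of 0.1.

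Leaving out each library gave 2 to 3 and 3 to 5 called in MDA-MB-231, 2 to 4 and 3 to 4 in MDA-MB-436, 9 to 12 and 10 to 11 between the lines, and 2 to 4 and 2 to 3 for the difference of the changes (low and standard serum). The 4 in MDA-MB-436 came without MDA-MB-436 7TGP-POS replicate 1 in low serum. The shares of all genes called with a library left out are not given here, so these counts show only how far the number moved. The low serum difference of SERPINA1 between the lines was under the threshold in 9 of 15 settings, down to -0.48 with limma on log2(TPM + 1), and that of SERPINF2 missed the test with DESeq2 (adjusted p = 0.095). The SERPINC1 call between the lines was lost in 8 of 14 settings, and that of SERPING1 in low serum also without MDA-MB-436 7TGP-NEG replicate 1 (adjusted p = 0.058). Leaving out 1 7TGP-NEG library with 0 to 3 counts moved fitted folds of SERPINB2, SERPINB3, SERPINB9 and SERPIND1 by over 1.5 times with no call lost, and SERPINB4, SERPINB7 and SERPINF1 moved as much without 1 7TGP-NEG library in standard serum. The cause of these changes was not tested.

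Deviations of same-numbered replicates correlated by -0.057 to 0.01 in low serum, which gave no sign of pairing. In standard serum these correlations were all weakly positive, at 0.011 to 0.117. With the number as a block, 3 and 4 serpins were called in MDA-MB-231 (low and standard serum), beside 926 of 16069 and 1170 of 15414 genes. In MDA-MB-436, 2 and 4 were called, beside 1667 and 1938 genes. Between the 7TGP-NEG sublines it was 10 and 11, beside 6692 and 7171 genes. The difference of the changes gave 3 and 2, beside 1854 and 2158 genes. At 2 replicates a group, p-values measure the spread between cultures of the same subline and not between separately sorted sublines. Serpins with a few counts per library could be compared only where they differed many-fold.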
